A study of Mus musculus with 11 samples.

Results

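The planar cell polarity (PCP) genes examined here are the mouse genes Vangl1, Vangl2, Celsr1, Fzd3, Fzd6, Prickle1, Prickle2, Dvl1, Dvl2 and Ptk7. They were listed by symbol as core members of the pathway, by a rule that uses no measured value although earlier results of these data were known, and all 10 are among the 18667 genes present in each of the 4 deposited tables, 1 per age. The libraries hold single cells from the floor of the cochlear duct of wild type CD1 mice of either sex, with no treatment, captured with the 10x Chromium droplet system, in which each transcript carries a unique molecular identifier (UMI). There are 2 libraries from embryonic day (E) 14, 3 from E16, 4 from postnatal day (P) 1 and 2 from P7, and cochleae of several animals of 1 litter were pooled for each. P7 libraries are numbered 4 and 5 in the labels. A library is therefore a pool of animals, and every p-value below measures the spread between such pools.

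PCP signaling orients cells within the plane of an epithelium. Core complexes of Frizzled, Dishevelled and Celsr proteins gather on one side of each cell and complexes of Vangl, Prickle and Celsr on the other, and the complexes meet across cell borders. In the cochlea the pathway is known for aligning the stereociliary bundles of hair cells (HCs) and for the lengthening of the duct, and it acts in HCs and in supporting cells (SCs) alike.

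In the mouse GRCm38 assembly Vangl1 spans chr3:102153583-102204693, Vangl2 chr1:172000960-172028444, Celsr1 chr15:85898929-86033777, Fzd3 chr14:65192449-65262463, Prickle1 chr15:93499114-93595891, Prickle2 chr6:92370908-92706155 and Ptk7 chr17:46564471-46629504, all on the minus strand. Fzd6 at chr15:39006034-39038188, Dvl1 at chr4:155847402-155859303 and Dvl2 at chr11:70000595-70012301 are on the plus strand. Dvl2 shares bases with Acadvl and Dvl1 with Tas1r3 on the opposite strands. On its own strand Dvl2 also holds the microRNA gene Mir324, and Fzd3 holds the small RNA gene Gm27263.

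Upstream sequences of 3 genes are shown because the results turn on these genes: the paralogs Dvl1 and Dvl2, of which Dvl1 was higher and Dvl2 lower in HCs than in SCs at P1, and Ptk7, whose HC level fell farthest from that of the remaining duct cells between P1 and P7. Each is the run of 250 bases just before the RefSeq start site (GRCm38.p6), written 5′ to 3′ on the strand of the gene, at chr4:155847152-155847401 (plus), chr11:70000342-70000591 (plus) and chr17:46629505-46629754 (minus). Capitals mark GGGCGG or its reverse complement CCGCCC, and CACGTG, which reads the same on both strands.
Dvl1: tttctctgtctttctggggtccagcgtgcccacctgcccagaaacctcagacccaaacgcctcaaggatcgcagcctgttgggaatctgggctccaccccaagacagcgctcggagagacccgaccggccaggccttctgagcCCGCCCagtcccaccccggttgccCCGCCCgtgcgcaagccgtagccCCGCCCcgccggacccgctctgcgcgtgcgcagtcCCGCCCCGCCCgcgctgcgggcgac
Dvl2: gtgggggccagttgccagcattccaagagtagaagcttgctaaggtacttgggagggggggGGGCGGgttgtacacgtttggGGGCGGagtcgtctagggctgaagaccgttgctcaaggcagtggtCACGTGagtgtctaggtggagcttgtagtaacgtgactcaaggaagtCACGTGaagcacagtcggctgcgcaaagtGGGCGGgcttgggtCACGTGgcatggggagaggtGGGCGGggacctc
Ptk7: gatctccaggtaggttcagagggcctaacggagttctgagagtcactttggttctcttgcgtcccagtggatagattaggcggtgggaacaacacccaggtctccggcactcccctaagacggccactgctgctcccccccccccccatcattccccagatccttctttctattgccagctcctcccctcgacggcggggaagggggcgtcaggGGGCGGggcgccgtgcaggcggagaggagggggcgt

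The Dvl1 window holds the GC box (GGGCGG) 5 times, with 2 of the matches sharing a base, and no E-box of the kind marked. The Dvl2 window holds the GC box 4 times and the E-box (CACGTG) 3 times, and the Ptk7 window holds 1 GC box. Of 32851 RefSeq windows of this length, 32.7% hold the GC box and 6.02% hold that E-box. A second E-box, CAGCTG, found in 13.0% of all windows, was searched on both strands too and is in none of the windows shown. The same is true of the letters TATAAA, found in 12.4%. A match describes the letters and not a bound site. Windows were found for 6 of the 10 genes: Vangl2, Prickle1, Prickle2, Dvl1, Dvl2 and Ptk7. Vangl1, Celsr1, Fzd3 and Fzd6 were not matched.

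Cells were sorted into classes by counting how many markers had a UMI in each cell. HCs had at least 5 of 14 HC genes. Lateral SCs had at most 2 HC genes, at least 1 of the 4 anchor genes Fgfr3, Prox1, Npy and Ngfr, and at least 3 of 13 SC genes. The other duct cells had at most 2 HC genes, no anchor gene and at most 2 SC genes, and most of them carried markers of Kölliker's organ (KO), the epithelium medial to the organ of Corti. No PCP gene is a gate gene. The gates gave 65 HCs, 225 anchor-positive cells and 4291 other cells at E14, then, in the same order, 609, 462 and 5993 in the E16 libraries, 1069, 853 and 9835 in those of P1 and 266, 111 and 2593 in those of P7. Another 4262 of the 30634 cells, from 10.5% to 23.5% of a library, fell between the gates and were left out of the classes. The highest share is in P1 replicate 1, where 213 cells had 3 or 4 HC genes.

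The labels of the classes were checked on genes that no class gate used. The summed level of 6 HC genes (Myo7a, Cib2, Gng8, Otof, Gfi1 and Barhl1), as mean UMIs per 1000000 UMIs of the cell (CPM), ranged from 643 to 866 in HCs at E14 and from 2554 to 7101 in HCs at the later ages. It stayed at or below 89.4 CPM in SCs and at or below 150 CPM in other cells. Of the HC sums, Cib2 gave 751 and 564 CPM at E14 and 5422 and 5382 CPM at P7. Myo7a was at 0 CPM in HCs of E14 replicate 1 and Otof in those of E14 replicate 2, while Gng8, Gfi1 and Barhl1 were higher in HCs in both E14 libraries. Gng8 was at 0.78 and 0.97 CPM in P7 HCs. The summed level of 6 SC genes (Sox2, Cdkn1b, Prss23, S100a1, Socs2 and Car14) was higher in lateral SCs than in HCs at E16, P1 and P7, from 4425 to 11575 against 1446 to 3944 CPM. In other cells that sum was 399 to 3204 CPM at these ages. Of the P7 sums in SCs, S100a1 gave 7224 and 8320 CPM. Prss23 at P7 was higher in other cells (1241 and 901 CPM) than in SCs (408 and 294 CPM). Between HCs and the gated cells of E14 the order of the sums was the other way round, with 3048 to 3114 CPM in HCs and 1892 to 2334 CPM in the gated cells. S100a1 was higher in HCs there (1133 and 1404 against 547 and 437 CPM), as was Socs2. Cdkn1b was lower in HCs (36.4 and 67.7 against 107 and 108 CPM). The SC label was thus not borne out at E14, and those cells are called anchor-positive cells. At E16 the paper places Fgfr3 and Prox1 in lateral prosensory cells as well, and it uses Sox2 and Cdkn1b as prosensory markers. The check therefore cannot tell SCs from lateral prosensory cells at E16, and the class called lateral SCs there may hold both. The anchor-positive cells of E14 also had more UMIs per cell, a median of 5746.5 to 8690 per library against 3123 to 3279 in other cells. The same held at P7, with 7433 to 7712.5 in lateral SCs against 4240.5 to 4592 in other cells. Libraries held from 3828399 to 23523802 UMIs, each pair of libraries shared from 1 to 36 cell barcodes, and no barcode found in 2 libraries of an age had identical counts in both.

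The floor for testing was a mean of at least 10 CPM over the 12 groups of age and class, which 7 of the 10 genes passed. Prickle1, Prickle2 and Dvl1 fell below it, so their values are given with a separate fit of all genes. Each gene is compared with itself only, across classes and ages.

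**Figure D1:**
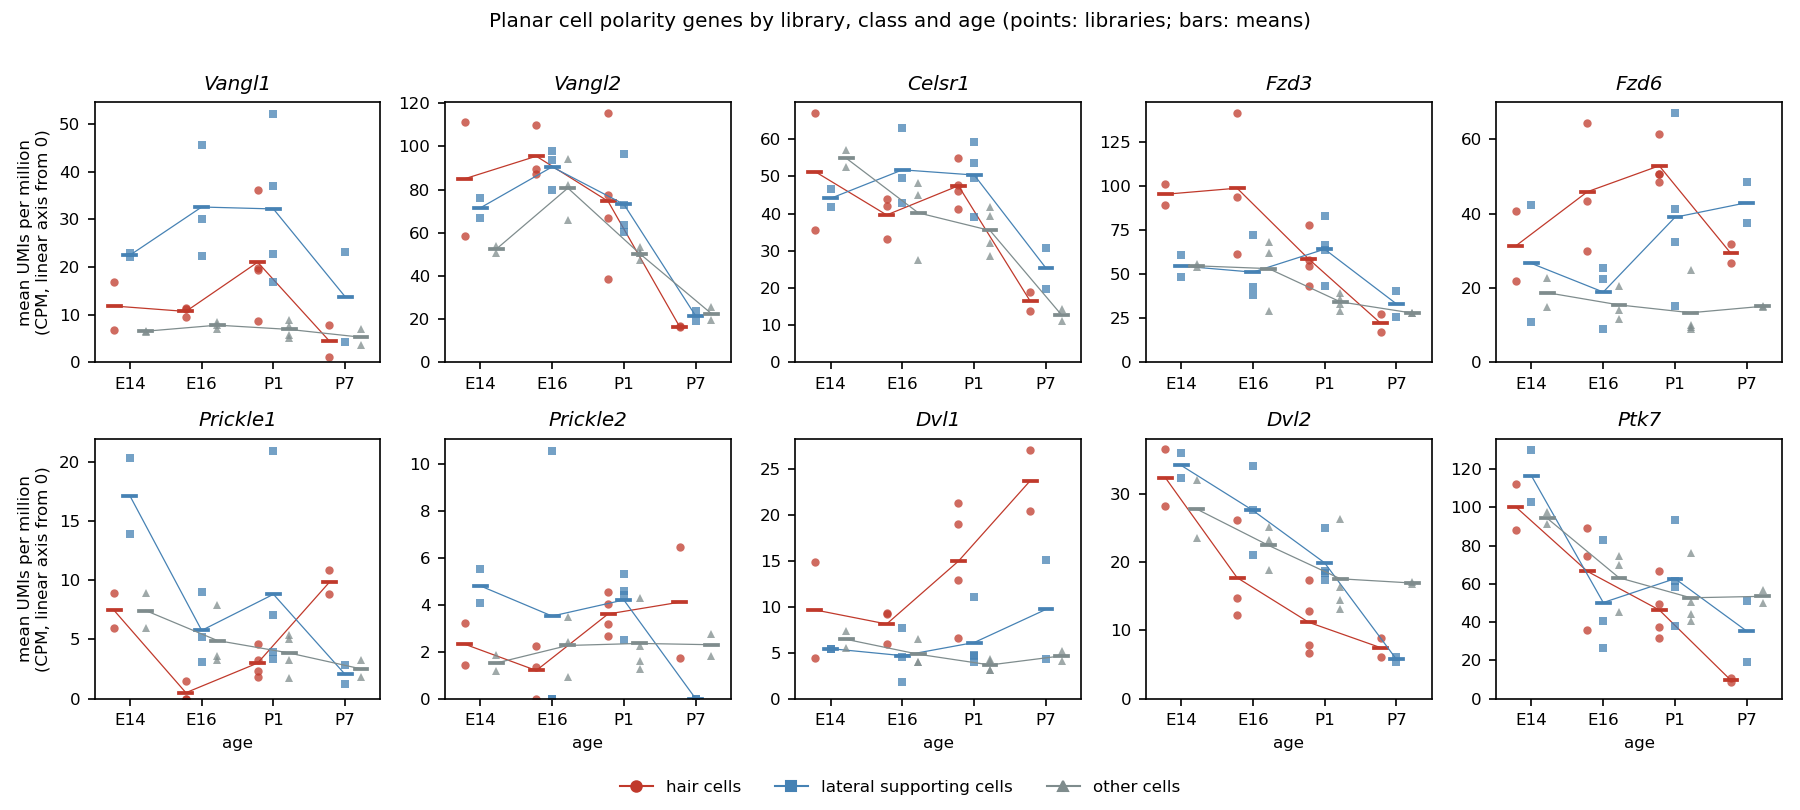
Mean level of each of the 10 PCP genes (vertical axis, CPM, linear from 0) at E14, E16, P1 and P7 (horizontal axis) in HCs, lateral SCs (anchor-positive cells at E14) and other duct cells. Points are libraries and short bars are means over libraries. In HCs, Vangl2 sat at 38.6 to 116 CPM in the P1 libraries and at 16 and 16.5 CPM at P7, and Ptk7 at 31.9 to 66.5 and then 8.45 and 10.6 CPM.

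Between HCs and SCs of the same age, few PCP genes differed. The difference changed from gene to gene, with Fzd3 and Fzd6 higher in HCs at E16, Vangl1 lower in HCs at E16, Dvl2 lower at P1 and Ptk7 lower at P7. None of the 7 tested members passed the threshold (limma, Benjamini-Hochberg adjusted p under 0.05) between HCs and anchor-positive cells at E14, where 8.75% of the 9243 genes tested did, and 1 member, Fzd3, had an unadjusted p under 0.05. At E16, 3 of 7 passed, beside 25.2% of all genes. At P1 and P7, 1 of 7 passed at each age, beside 50.6% and 48.1%. The median difference of the 7 members was, in order of age, 0.13, 0.07, -0.11 and -0.42 (log2 of CPM + 10, HC minus SC), and that of all genes lay between -0.08 and 0.06.

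Lateral SCs against the other duct cells gave a second set of differences, most of them in the SC direction. Vangl1 was higher in the gated cells at E14, E16 and P1, Fzd6 at P1 and P7, Fzd3 at P1 and Celsr1 at P7, while Dvl2 was lower in SCs at P7. The counts are 1 of 7 members at E14 beside 16.3% of all genes, 1 of 7 at E16 beside 12.4%, 3 of 7 at P1 beside 23.8% and 3 of 7 at P7 beside 25.7%. Medians of the 7 members were 0.23, 0.16, 0.44 and 0.17 (log2) in order of age, and those of all genes lay between -0.04 and 0.07. The other class changed in makeup with age: at P7 its glial marker list summed to 962 and 2973 CPM and its mesenchymal list to 407 and 1032 CPM, against at most 151 and 40.3 CPM before, and 118 glial and 86 mesenchymal cells were gated in it.

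**Figure D2:**
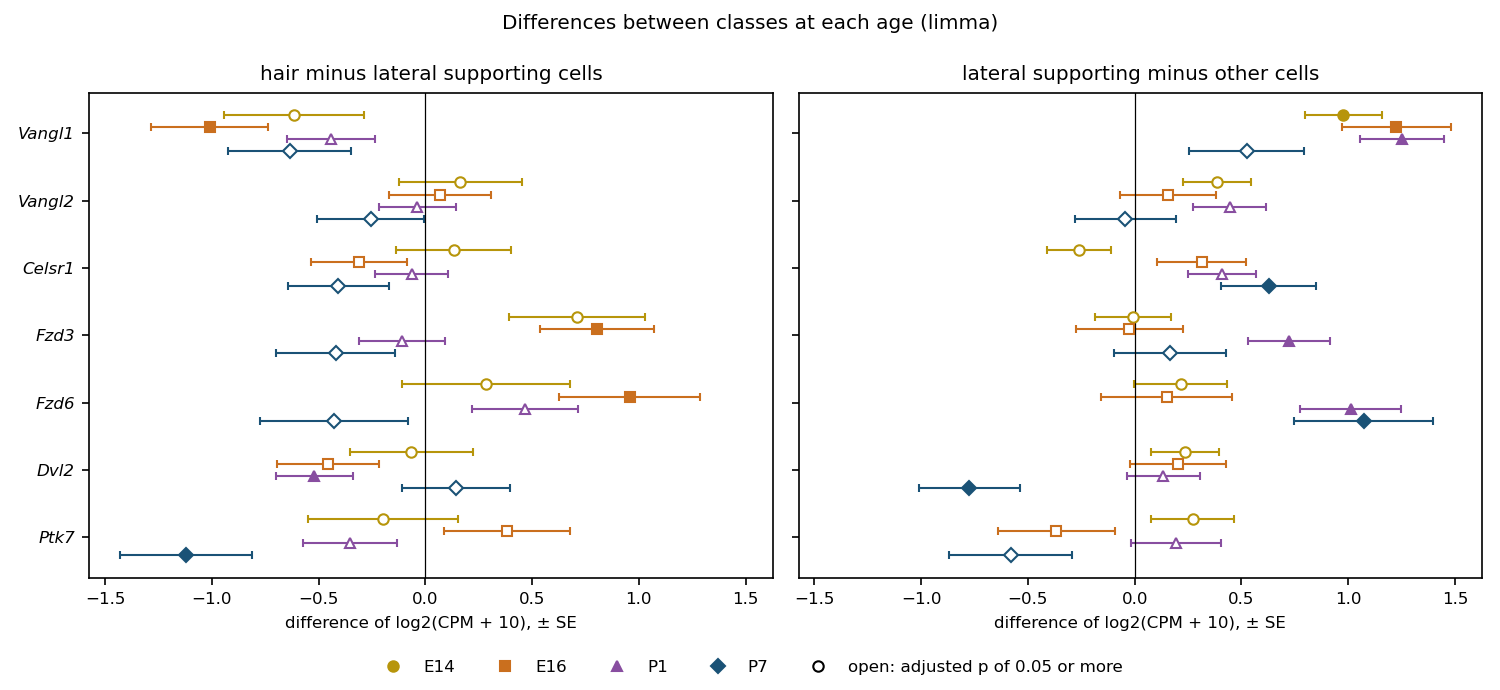
Differences of the 7 tested members between HCs and lateral SCs and between lateral SCs and other cells, at each age (horizontal axis, log2 difference of CPM + 10, with bars of 1 standard error from limma). Filled symbols passed an adjusted p of 0.05. Vangl1 lies to the right of 0 in the gated lateral cells against other cells at every age, with 0.98 at E14 (anchor-positive cells), 1.23 at E16 and 1.25 at P1 filled and 0.52 at P7 open.

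Vangl1 and Vangl2 encode the transmembrane Van Gogh proteins that recruit Prickle. In HCs, Vangl1 was at 16.9 and 6.70 CPM in the E14 libraries, 9.40, 11.1 and 11.4 in those of E16, 8.70, 19.4, 19.8 and 36.1 in those of P1 and 1.04 and 7.80 in those of P7. In the gated lateral cells it was at 22.01 and 22.9 CPM, then 30.01, 22.2 and 45.5, then 22.8, 16.8, 52.1 and 37.1, and at 4.32 and 23.1 at P7. Other cells held 3.59 to 8.93 CPM in all 11 libraries, below every value of the gated lateral cells at E14, E16 and P1. The mean of the other class was therefore low for Vangl1 in each library. Some types within it had more, such as roof cells of E16 (19.8 to 64.8 CPM, on 12 UMIs in all) and interdental cells of P1 (10.9 to 20.2 CPM). HCs lay above other cells of their age without overlap at E16, and overlapped them at P1 and P7. At E14 the lower HC library (6.70 CPM) was level with the higher library of other cells (6.61 CPM). The E14 HC values rest on 6 UMIs in 65 cells, so no order can be read there. HCs against other cells of 1 age were not tested.

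Vangl1 was higher in the gated cells than in other cells by 0.98 ± 0.18 (log2, SE) at E14 (adjusted p = 0.00013), by 1.23 ± 0.26 at E16 (adjusted p = 0.00069) and by 1.25 ± 0.20 at P1 (adjusted p = 4.4e-06), in every library of each age. The E14 call was lost without either E14 library, without cells over 3000 genes, without group weights (each group counted as equally variable) and with gates on thinned counts, the E16 call without E16 replicate 3, and the P1 call in none of the alternatives. HCs had less Vangl1 than SCs at E16 in 3 of 3 libraries with no overlap (difference of -1.01 ± 0.27, adjusted p = 0.0052), a call lost without E16 replicate 3 and without the library block, the term that links the classes of 1 library. At P1 the HC minus SC difference of Vangl1 was -0.44 ± 0.21 (adjusted p = 0.072) and the groups overlapped.

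Vangl2 was present in every class. HCs had 112 and 58.4 CPM in the E14 libraries, 110, 87.3 and 89.4 in those of E16, 38.6, 77.6, 66.7 and 116 in those of P1 and 16.0 and 16.5 in those of P7. Lateral SCs had 97.9, 93.9 and 79.7 CPM at E16, 60.1, 72.9, 63.4 and 96.4 in the P1 libraries and 23.6 and 19.3 in those of P7, after 66.9 and 76.1 in the anchor-positive cells at E14. Other cells ranged from 50.8 to 94.1 CPM at E14 and E16 and from 47.2 to 53.4 at P1, and had 19.4 and 25.6 at P7. In all 3 classes the P7 libraries were below every library of the earlier ages. Between classes of 1 age Vangl2 passed no test, with the nearest in lateral SCs against other cells at P1 (0.44 ± 0.17, adjusted p = 0.057), where SCs were higher in 4 of 4 libraries with no overlap. That difference passed in 4 of 17 alternative settings, among them the fit of each age alone with library as a fixed block and the replicate block.

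Celsr1 encodes a cadherin with 7 membrane passes that joins the complexes of neighboring cells. Its HC levels were 35.4 and 67.2 CPM in the E14 libraries, 43.8, 41.9 and 33.0 in those of E16, 41.3, 47.5, 54.9 and 46.1 in those of P1 and 19.0 and 13.8 in those of P7. Anchor-positive cells had 46.5 and 41.6 CPM at E14, and lateral SCs 49.4, 62.9 and 42.9 at E16, 39.0, 49.7, 53.5 and 59.3 in the P1 libraries and 30.8 and 19.8 in those of P7. Other cells had 52.6 and 57.1 CPM at E14, above both anchor-positive libraries and between the HC libraries. At E16 they had 48.3, 44.9 and 27.4 CPM, the lowest of which lay below every HC and SC library of that age. They were at 28.5, 32.2, 39.3 and 41.7 CPM at P1 and at 11.04 and 14.2 at P7. Both P7 libraries were low in each class, and no difference between classes passed at the first 3 ages. In lateral SCs against other cells at P1 the difference of 0.41 ± 0.16 (adjusted p = 0.063, higher in 4 of 4 libraries) passed in 4 of 17 alternative settings, both of those fixed blocks included. At P7 it was higher in lateral SCs than in other cells by 0.63 ± 0.22 (adjusted p = 0.034), on 15 and 7 UMIs in the 2 SC libraries, and 7 of 16 alternative settings kept that call, which was also lost without P1 replicate 4 and without P7 replicate 4.

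Fzd3 and Fzd6 encode Frizzled receptors that act together in the core pathway. Fzd3 in HCs was at 101 and 89.0 CPM in the E14 libraries, 93.5, 141 and 61.0 in those of E16, 54.4, 43.3, 57.9 and 77.9 in those of P1 and 27.0 and 17.1 in those of P7. SCs had 38.1, 72.0 and 42.8 CPM at E16, 66.3, 43.0, 63.6 and 83.0 in the P1 libraries and 25.7 and 40.4 in those of P7, after 48.3 and 60.6 in the anchor-positive cells at E14. Other cells were at 53.7 and 55.4 CPM at E14, 67.9, 61.9 and 29.2 at E16, 28.8 to 39.0 at P1 and 27.8 in both P7 libraries. HC levels thus stood above those of the gated lateral cells of the same library at E14 and E16, although the E16 ranges overlapped, and were mixed with them at P1 and P7.

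The HC minus SC difference of Fzd3 was 0.81 ± 0.27 at E16 (adjusted p = 0.023). Without E16 replicate 1 or without E16 replicate 2 the call was lost, and 11 of 16 alternative settings kept it. At E14 the difference was 0.71 ± 0.32 (adjusted p = 0.18), and at P1 it was -0.11 ± 0.20 (adjusted p = 0.68). The change of this difference from E16 to P1, tested in itself, was -0.91 ± 0.33 (adjusted p = 0.085). Lateral SCs had more Fzd3 than other cells at P1, by 0.72 ± 0.19 (adjusted p = 0.0042) in 4 of 4 libraries, a call lost without P1 replicate 3 and without the library block.

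Fzd6 in HCs was at 40.8 and 21.8 CPM in the E14 libraries, 43.4, 64.4 and 29.9 in those of E16, 48.6, 50.7, 50.6 and 61.6 in those of P1 and 31.7 and 26.8 in those of P7. In SCs it was at 9.004, 25.4 and 22.3 CPM at E16, at 32.5, 41.4, 15.1 and 67.1 in the P1 libraries and at 37.4 and 48.5 in those of P7, after 42.4 and 10.8 in the anchor-positive cells at E14. Other cells had 22.6 and 14.8 CPM in the E14 libraries, 20.6, 14.1 and 11.5 in those of E16, 9.93, 9.02, 9.38 and 24.9 in those of P1 and 15.1 and 14.9 in those of P7. HCs were higher than other cells in every library, while the SC libraries were spread widely.

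Fzd6 was higher in HCs than in SCs at E16 by 0.96 ± 0.33 (adjusted p = 0.029), with no overlap, and 8 of 16 alternative settings kept the call. It was lost without E16 replicate 1 and without E16 replicate 2. Among the settings that ended it were the fit of each age alone with library as a fixed block and the replicate block. Against other cells, lateral SCs were higher by 1.01 ± 0.24 at P1 (adjusted p = 0.0012) in 4 of 4 libraries and by 1.07 ± 0.32 at P7 (adjusted p = 0.013) in 2 of 2. Those calls were lost without P1 replicate 2 and without P7 replicate 5, respectively. All 17 alternative settings kept the P1 call and 12 of 16 kept that of P7.

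Prickle1 and Prickle2 encode cytoplasmic partners of the Vangl proteins, and both were near the limit of detection. In HCs Prickle1 was at 8.91 and 5.96 CPM at E14, on 3 UMIs in each library, then had 0, 2 and 0 UMIs at E16. The E16 zeros allow levels of up to 5.65 and 4.95 CPM, counting error only. At P1 the HC libraries held 1.803 to 4.62 CPM and at P7 they held 10.8 and 8.84 CPM, on 10 and 9 UMIs. Anchor-positive cells had 13.9 and 20.3 CPM at E14, and SCs had 3.11 to 8.98 at E16, 3.34 to 20.9 at P1, and 2.80 and 1.27 at P7. Other cells stayed between 1.77 and 8.87 CPM. HCs thus had less Prickle1 than SCs in 4 of 4 libraries at P1, with overlap, and more in 2 of 2 at P7 without overlap.

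In the fit without a floor on low values, where 33.6% of 18662 genes passed between HCs and SCs at P1, Prickle1 differed by -0.45 ± 0.17 (adjusted p = 0.041). At P7 its HC minus SC difference was 0.72 ± 0.28 (adjusted p = 0.053), and the change of that difference from P1 to P7 was 1.17 ± 0.32 (adjusted p = 0.017), beside 10.1% of all genes. The P7 SC values rest on 1 UMI per library. At E14 the same fit placed Prickle1 higher in anchor-positive cells than in other cells by 0.63 ± 0.18 (adjusted p = 0.024), beside 7.97% of all genes. Prickle2 reached at most 6.48 CPM in HCs and 10.6 CPM in SCs, and both P7 SC libraries had 0 UMIs, which allows up to 6.91 and 7.42 CPM. It passed no test between these 3 classes.

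Dvl1 and Dvl2 encode Dishevelled proteins, which carry the signal from Frizzled into the cell. Dvl1 in HCs was at 14.9 and 4.40 CPM in the E14 libraries, 5.91, 9.25 and 9.17 in those of E16, 6.60, 21.3, 19.0 and 12.9 in those of P1 and 20.4 and 27.0 in those of P7. SCs had 1.83, 7.67 and 4.497 CPM at E16, 4.78, 4.59, 11.01 and 4.01 in the P1 libraries and 4.34 and 15.1 in those of P7, after 5.44 and 5.42 in the anchor-positive cells at E14. Other cells ranged from 3.14 to 7.40 CPM over all libraries. HCs were above the SCs of the same library from E16 on, and the P7 groups did not overlap. The E16 SC values rest on 11 UMIs in all. Without the floor on low values, the HC minus SC difference of Dvl1 at E16 did not pass (0.32 ± 0.24, adjusted p = 0.49). In that fit Dvl1 was higher in HCs by 0.61 ± 0.17 at P1 (adjusted p = 0.0046) and by 0.82 ± 0.27 at P7 (adjusted p = 0.023, beside 26.8% of all genes).

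Dvl2 ran the other way at P1. In HCs it was at 36.6 and 28.3 CPM in the E14 libraries, 26.2, 12.3 and 14.8 in those of E16, 12.9, 7.80, 6.69 and 17.4 in those of P1 and 6.05 and 8.91 in those of P7. SCs had 21.003, 34.2 and 27.7 CPM at E16, 18.8, 18.5, 17.5 and 25.0 in the P1 libraries and 6.13 and 5.42 in those of P7, after 36.1 and 32.4 in the anchor-positive cells at E14. Other cells ranged from 18.9 to 32.1 CPM at E14 and E16 and from 13.1 to 26.4 at P1, and were at 17.1 and 16.8 at P7. Every P1 HC library was below every P1 SC library, and both P7 SC libraries were below every library of other cells.

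The HC minus SC difference of Dvl2 at P1 was -0.52 ± 0.18 (adjusted p = 0.016), lost without P1 replicate 2 and without P1 replicate 3, and kept by 13 of 15 alternative settings. At P7 lateral SCs had less Dvl2 than other cells (-0.77 ± 0.24, adjusted p = 0.014), on 3 and 2 UMIs in the SC libraries. That call was lost with gates on thinned counts, without cells over 3000 genes and with each age fitted alone. The other cells of P7 held 107 and 88 UMIs of Dvl2.

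Ptk7, a receptor-like protein with no active kinase that takes part in PCP signaling, was high early in all classes. HCs had 112 and 88.1 CPM in the E14 libraries, 88.9, 74.7 and 35.8 in those of E16, 31.9, 37.5, 49.5 and 66.5 in those of P1 and 8.45 and 10.6 in those of P7. Anchor-positive cells had 130 and 103 CPM at E14, and SCs 26.7, 83.1 and 40.8 at E16, 58.3, 61.3, 37.9 and 93.2 in the P1 libraries and 19.4 and 51.1 in those of P7. Other cells were at 97.4 and 91.1 CPM in the E14 libraries, 74.7, 69.6 and 45.2 in those of E16, 50.2, 40.5, 44.2 and 75.9 in those of P1 and 56.9 and 50.01 in those of P7. At P7 HCs were low while other cells sat within their P1 range. The P7 difference between HCs and SCs was -1.12 ± 0.31 (adjusted p = 0.0030), with no overlap, and was lost without P7 replicate 5.

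Across ages, most of the tested PCP genes fell in HCs from P1 to P7, and no earlier change between neighboring ages passed. The HC means of Dvl2 were 32.4, 17.7 and 11.2 CPM and those of Ptk7 100.2, 66.5 and 46.3 CPM at E14, E16 and P1. Neither gene passed from E14 to E16 or from E16 to P1, and E14 against P1 was not tested. Dvl1 and Prickle1 had their highest HC means at P7, of 23.7 and 9.82 CPM. None of the 7 tested members passed in HCs from E14 to E16, where 7.94% of genes did, or from E16 to P1, where 16.8% did. At an unadjusted p under 0.05 the counts were 0 and 1 (Fzd3). From P1 to P7, 5 of 7 fell in HCs, beside 24.8% of all genes called, 13.9% in the lower direction. In 6 of 7 (all but Dvl2) both P7 libraries were below all 4 P1 libraries, a pattern found in 21.8% of the genes tested. The median change of the 7 was -1.09 (log2) and that of all genes -0.04.

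Vangl2 had the largest change of the 7 in HCs, -1.61 ± 0.25 (adjusted p = 7.9e-06), followed by Ptk7 with -1.49 ± 0.31 (adjusted p = 0.00039). Celsr1 changed by -1.12 ± 0.24 (adjusted p = 0.0005), Fzd3 by -1.09 ± 0.28 (adjusted p = 0.0039) and Vangl1 by -1.07 ± 0.29 (adjusted p = 0.0055). The calls of Vangl2, Celsr1 and Ptk7 held in all alternatives and with each library left out in turn. Vangl1 was lost without P7 replicate 4 and Fzd3 without P7 replicate 5. Fzd6 had a change of -0.68 ± 0.35 (adjusted p = 0.16) and Dvl2 of -0.25 ± 0.25 (adjusted p = 0.52). With no floor, Prickle1 had 0.61 ± 0.24 (adjusted p = 0.096) and Dvl1 0.47 ± 0.24 (adjusted p = 0.23), the opposite sign. Age cannot be told apart from the collection and preparation of the libraries, since no library holds 2 ages. HC libraries had medians of 5340 to 9655 UMIs per cell at P1 and of 7100 and 7147 at P7, and the glial marker list in HCs summed to at most 21.4 CPM at P1 and to 22.7 and 202 CPM at P7. The mesenchymal list in HCs summed to 3.64 to 4.84 CPM at P1 and to 18.6 and 22.02 CPM at P7. The part of glial and mesenchymal RNA in the HC changes was not tested.

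In lateral SCs, 2 of 7 members fell from P1 to P7, beside 11.4% of all genes called, 6.95% in the lower direction. Vangl2 changed by -1.39 ± 0.31 (adjusted p = 0.0021) and Dvl2 by -0.92 ± 0.31 (adjusted p = 0.049). The Vangl2 call held in every alternative, while only 5 of 13 alternative settings kept that of Dvl2, which was also lost without E16 replicate 3 and without any 1 of the P1 libraries. The median of the 7 was -0.78, against -0.11 for all genes. From E14 to E16 (5.85% of genes called) and from E16 to P1 (2.33%) no member passed in these cells, and the unadjusted counts were 1 and 0. Ptk7 came nearest, with -1.17 ± 0.37 from the anchor-positive cells of E14 to the SCs of E16 (adjusted p = 0.051), a change that passed in 5 of 15 alternative settings and without P1 replicate 3. Over the step from P1 to P7 the marker lists of other types also moved in the SC class: 9 lateral nonsensory genes summed to 857 to 1246 CPM at P1 and to 1688 and 2033 at P7, and 6 mesenchymal genes to at most 6.22 CPM and then 13.7 and 94.8, with 3 of the 6 detected at P7. Their part in the falls was not tested.

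The fall from P1 to P7 was not shown to differ between HCs and SCs. The change in HCs minus that in SCs passed for none of the 7 members, beside 18.3% of all genes, with 2 members (Fzd6 and Dvl2) at an unadjusted p under 0.05. For the change from E16 to P1 it also passed for none, beside 8.24%, with 1 (Fzd3) unadjusted. Ptk7 gave -0.77 ± 0.38 from P1 to P7 (adjusted p = 0.17), and Vangl2 -0.22 ± 0.31 (adjusted p = 0.68).

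Against the other duct cells the change differed for some members. These comparisons were added after the HC falls had been seen. In other cells 2 of 7 members fell from P1 to P7, beside 29.3% of all genes called, 14.5% in the lower direction. Vangl2 changed by -0.90 ± 0.18 (adjusted p = 0.00019) and Celsr1 by -0.999 ± 0.17 (adjusted p = 1.8e-05). Ptk7 gave 0.05 ± 0.22 there (adjusted p = 0.91). The Vangl2 call in other cells was lost without P7 replicate 4.

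The change in HCs minus that in other cells passed for 4 of 7 members, beside 32.2% of all genes, all 4 in the direction of a larger HC fall, in which 18.3% of all genes were called. Ptk7 had -1.54 ± 0.30 (adjusted p = 0.00013), Vangl1 -0.92 ± 0.28 (adjusted p = 0.011), Fzd3 -0.87 ± 0.27 (adjusted p = 0.013) and Vangl2 -0.71 ± 0.25 (adjusted p = 0.025). Fzd6 had -0.83 ± 0.34 (adjusted p = 0.057) and passed in 8 of 15 alternative settings, and Celsr1 had -0.12 ± 0.23 (adjusted p = 0.73). With the other class limited to cells gated by the KO list, Vangl1 was no longer called, Fzd6 was called and the other 3 calls remained. The Ptk7 call held in every alternative and with every library left out, whereas that of Vangl2 was lost without P1 replicate 2, 3 or 4 and without either P7 library, that of Vangl1 without P7 replicate 4 and that of Fzd3 without P7 replicate 5. Of the alternative settings, 10 of 15 kept the Vangl2 call, 10 of 14 that of Vangl1 and 14 of 15 that of Fzd3, and none of these 3 held without the library block. With no floor, Prickle1 passed in the other direction (0.75 ± 0.25, adjusted p = 0.031, beside 20.5% of all genes).

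**Figure D3:**
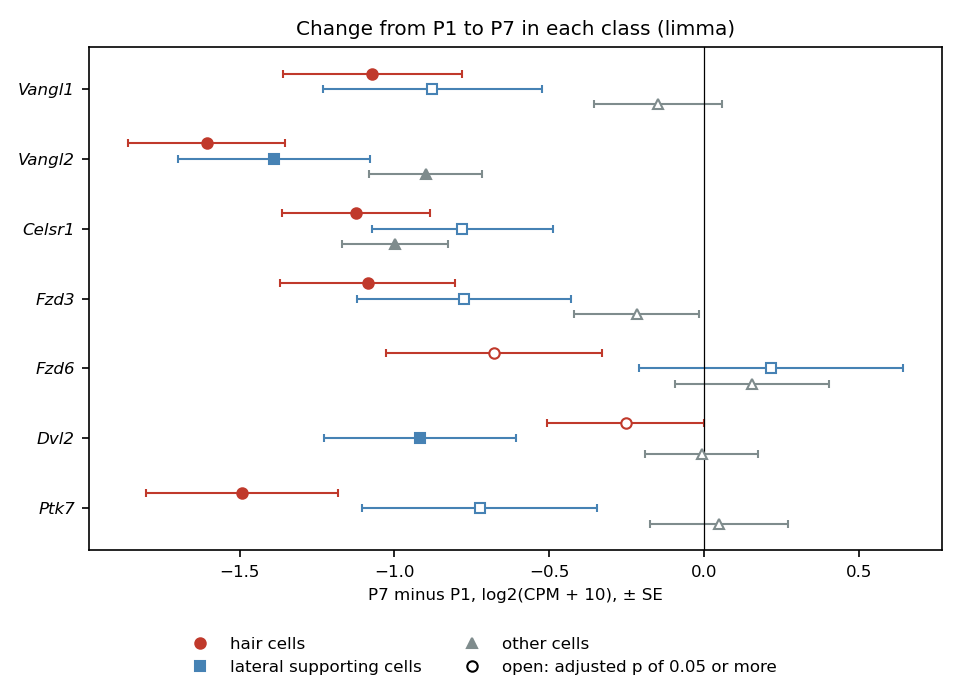
Change of the 7 tested members from P1 to P7 in HCs, lateral SCs and other cells (horizontal axis, log2 difference of CPM + 10, P7 minus P1, with bars of 1 standard error from limma). Filled symbols passed an adjusted p of 0.05. For Vangl2 all 3 classes lie to the left of 0 (-1.61, -1.39 and -0.90), while for Ptk7 HCs are at -1.49 and other cells at 0.05.

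Inner and outer HCs (IHCs and OHCs) were separated by lists of 8 IHC and 9 OHC genes. The cuts were set after the spread of marker counts had been seen. They gave 168 IHCs and 616 OHCs at P1 and 82 and 162 at P7, and 285 and 22 HCs met neither gate. None of the 6 members tested in this fit passed between IHCs and OHCs, beside 6.27% of 9011 genes at P1 and 13.9% at P7. At an unadjusted p under 0.05 there was 1 at P1 (Ptk7) and there were 3 at P7 (Vangl2, Celsr1 and Dvl1).

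Vangl1 was lower in IHCs than in OHCs of the same library in 4 of 4 at P1, and the ranges overlapped. IHCs of P1 had 0, 12.2, 5.45 and 3.40 CPM, on 0, 3, 2 and 1 UMIs, against 10.3, 25.7, 25.9 and 34.1 CPM in OHCs. At P7 the IHCs had 0 UMIs in both libraries, which allows up to 9.86 and 9.68 CPM, and OHCs had 1.77 CPM, on 1 UMI and below that limit, and 12.5 CPM. The gene fell under the floor in this fit, and without a floor its difference at P1 was -1.16 ± 0.28 (adjusted p = 0.039, beside 2.66% of 17811 genes) and that at P7 was -0.70 ± 0.42 (adjusted p = 0.45).

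Prickle2 had the opposite order. P1 IHCs held 8.10, 13.9, 5.01 and 24.5 CPM, on 4, 3, 2 and 4 UMIs, and OHCs held 0, 0, 3.06 and 1.54 CPM. At P7 the IHCs were at 19.3 and 6.14 CPM, on 6 and 2 UMIs, and both OHC libraries had 0 UMIs (up to 5.70 and 4.62 CPM). No OHC library reached an IHC library at either age. The lower P7 IHC value lay under the 3 UMI limit of its library (9.68 CPM). Without a floor the difference was 0.97 ± 0.23 at P1 (adjusted p = 0.031) and 1.12 ± 0.34 at P7 (adjusted p = 0.088, beside 3.93% of genes).

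At P7, Vangl2 was at 5.90 and 6.06 CPM in IHCs, on 2 UMIs in each library, and at 21.4 and 22.01 CPM in OHCs. Its difference was -0.99 ± 0.34 (adjusted p = 0.054), and at P1 it was -0.34 ± 0.26 (adjusted p = 0.56). Dvl1 at P7 was at 33.96 and 48.1 CPM in IHCs and at 15.2 and 17.7 in OHCs, a difference of 0.94 ± 0.37 (adjusted p = 0.097). Ptk7 at P1 was at 19.7, 20.8, 32.8 and 43.3 CPM in IHCs and at 31.0, 41.4, 55.0 and 69.3 in OHCs, lower in IHCs of 4 of 4 libraries (-0.60 ± 0.24, adjusted p = 0.15). Fzd3, Fzd6 and Dvl2 overlapped between the HC types at both ages. IHCs were 168 of 1069 HCs at P1 and 82 of 266 at P7. Within each type the P7 libraries were below every P1 library for Vangl2 (29.05 to 121 CPM in OHCs and 40.8 to 63.5 CPM in IHCs at P1), while Vangl1 in OHCs overlapped between the ages, and the part of the makeup in the HC fall of Vangl1 was not tested.

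**Figure D4:**
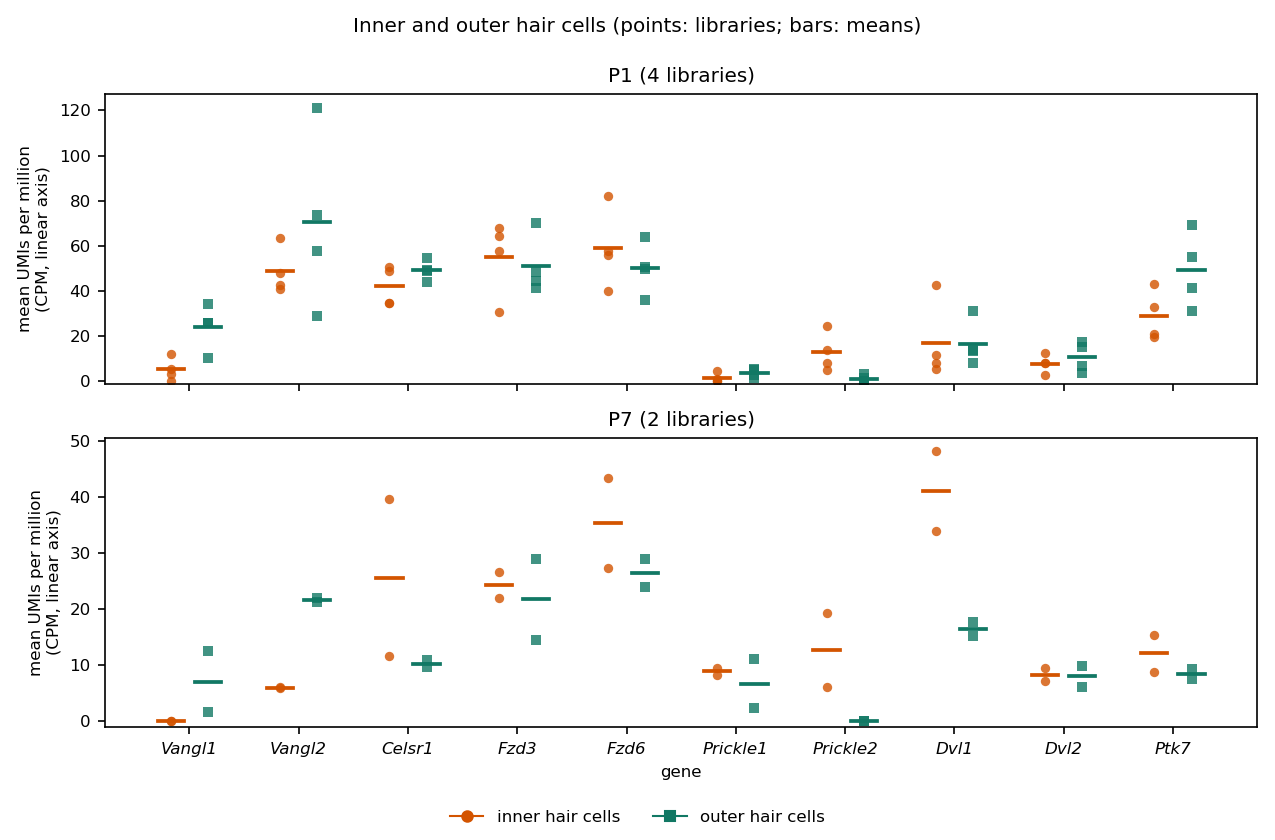
Level of the 10 PCP genes (vertical axis, CPM, linear) in IHCs and OHCs at P1 (4 libraries) and P7 (2 libraries). Points are libraries and bars their means. Vangl1 lies lower in IHCs (0 to 12.2 CPM at P1, against 10.3 to 34.1 in OHCs) and Prickle2 higher (5.01 to 24.5 against 0 to 3.06).

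Within the other class, cells were assigned to the marker list with the largest share of genes detected, and their levels are given as a description. Prickle2 was uneven in the lateral nonsensory cells, those beyond the organ of Corti toward the outer wall. It was there at 1.18 and 7.10 CPM at E14, on 8 UMIs in all, with 1.05 and 1.42 CPM in KO cells, then at 32.1, 84.0 and 2.55 CPM at E16 and at 39.3, 0, 16.1 and 32.3 CPM at P1, against 0.434 to 1.91 and 1.14 to 3.89 CPM in KO cells. These E16 and P1 levels rest on 17 and 26 UMIs in all. Prickle1 at E14 was also higher there (33.0 and 19.6 CPM) than in KO cells (4.55 and 4.999), and Fzd6 was too (64.9 and 37.9 against 13.6 and 9.83 CPM). Roof cells, marked by Oc90, had Fzd6 at 66.8 and 73.9 CPM in the 2 P1 libraries with enough of them, and KO cells had 8.43 to 22.7. Celsr1 was at 82.7 and 101 CPM in the cycling cells of E14, above the KO cells at 66.7 and 62.0.

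At P7, Ptk7 was at 148 and 182 CPM in mesenchymal cells, at 54.6 and 42.1 in KO cells, and at 0 and 2.58 in glial cells. Fzd3 was at 99.04 and 59.8 CPM in the glial cells, against 24.7 and 27.0 in KO cells. The 2 non-epithelial types thus lay on opposite sides of KO cells for these genes. Limiting the other class to KO cells, an alternative chosen after its makeup had been seen, ended the P7 call of Celsr1 between lateral SCs and other cells. It kept those of Fzd6 and Dvl2 and added one of Vangl1. Between anchor-positive cells and other cells at E14 it added calls of Celsr1 and Fzd6, in opposite directions. Celsr1 was lower in anchor-positive cells (46.5 and 41.6 CPM, against 66.7 and 62.0 in KO cells). Fzd6 was higher in them (42.4 and 10.8 CPM, against 13.6 and 9.83).

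**Figure D5:**
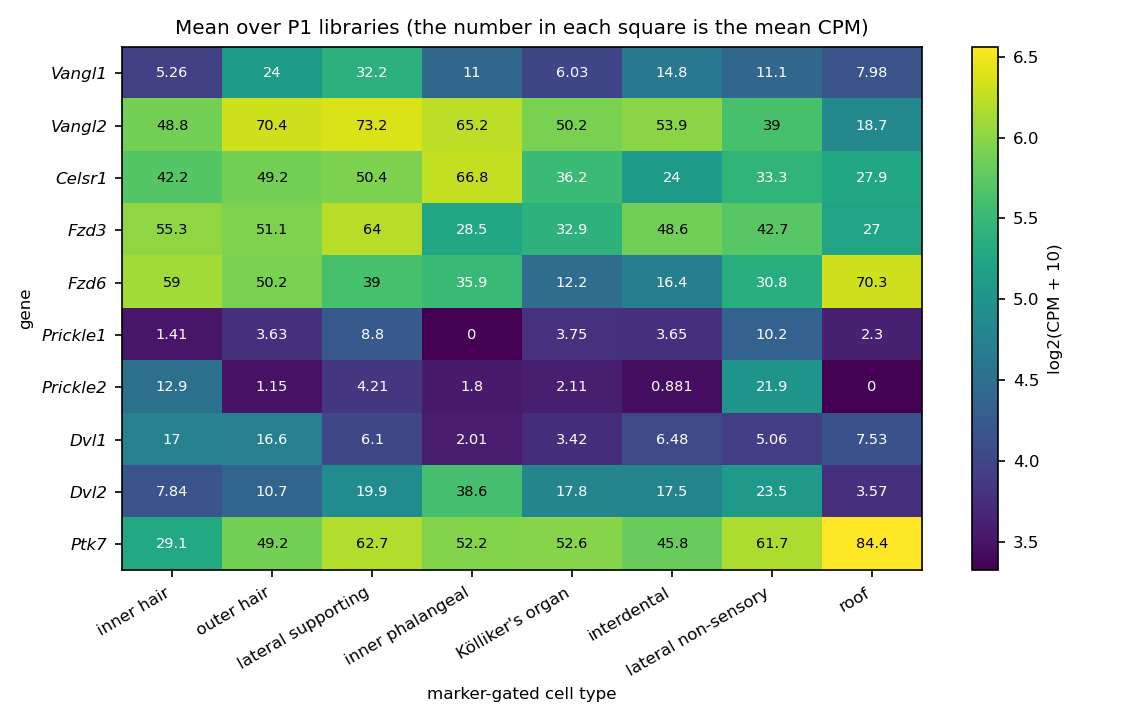
Mean level of the 10 PCP genes in marker-gated cell types at P1, as a grid of genes by types. Color is log2(CPM + 10), and the number in each square is the mean CPM over the libraries that held at least 10 such cells. Prickle2 reads 21.9 in lateral nonsensory cells, and Fzd6 reads 70.3 in roof cells.

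Lists of other PCP genes were counted the same way between HCs and SCs, and no test compared 1 list with another. Of 6 tested genes among 8 other core members (Celsr2, Celsr3, Fzd1, Fzd2, Fzd7, Dvl3, Prickle3 and Ankrd6), none was higher in HCs and 2 were lower at E16 and 4 at P1, beside 25.2% and 50.6% of all genes called, with medians of -0.52 and -1.003. Fzd1 differed by -1.75 ± 0.36 at E16 (HC minus SC, adjusted p = 0.00028) and by -1.52 ± 0.27 at P1 (adjusted p = 1.5e-05), and Ankrd6 (Diversin), which binds Dishevelled, by -1.10 ± 0.23 and -0.90 ± 0.17. Celsr2 and Fzd2 passed at P1, with -1.13 ± 0.19 and -1.10 ± 0.15.

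Among Wnt ligands and receptors, 6 of 9 tested (15 listed) were lower in HCs at E16 and 6 at P1, beside the same 25.2% and 50.6%, and none was higher, with medians of -1.19 and -1.001. Wnt7a had -2.61 ± 0.30 and -2.54 ± 0.22, Wnt5a -1.60 ± 0.30 and -1.30 ± 0.22, and the receptor Fzd4 -1.28 ± 0.27 and -1.98 ± 0.20. Wnt7b had -1.20 ± 0.25 at E16, and Fzd9 -2.52 ± 0.21 at P1. All 3 tested genes of the Fat and Dachsous system (7 listed), a second polarity pathway of giant cadherins, were lower in HCs at both ages, beside the same shares. None passed at P7 (median of 0.01), beside 48.1% of all genes. The HC minus SC difference rose from P1 to P7 for all 3 (median of 1.41), a change called in 18.3% of all genes in either direction. Fat3 differed by -1.94 ± 0.24 and -1.28 ± 0.18, Fat1 by -1.34 ± 0.27 and -0.97 ± 0.20, and the kinase Fjx1 by -1.09 ± 0.33 and -1.60 ± 0.25. At E16 and P1 the genes of these lists that passed were thus on the SC side.

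Effectors were split. Of 14 tested (18 listed), 2 were higher and 1 lower in HCs at E16, beside 25.2% of all genes called, and 4 higher and 5 lower at P1, beside 50.6%, with medians of 0.38 and 0.00. Intu, which acts in ciliogenesis, differed by 1.61 ± 0.27 and 1.72 ± 0.21, and Fuz, its partner, by 0.90 ± 0.27 at E16. Dact2, a Dishevelled binder, differed by -1.90 ± 0.36 and -2.56 ± 0.27, and the small GTPases Rac1 and Cdc42 by -1.12 ± 0.18 and -0.94 ± 0.13 at P1.

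Genes that orient the hair bundle within the HC went both ways. Of 13 tested (14 listed), 4 were higher and 3 lower in HCs at E16 (25.2% of all genes called), and 6 higher and 3 lower at P1 (50.6%), with medians of 0.10 and 0.15. Insc, an adaptor of the Gnai and Gpsm2 complex, was at a mean of 386.8 CPM in P1 HCs and 1.43 CPM in P1 SCs, a difference of 5.07 ± 0.18, after 4.42 ± 0.25 at E16. Pard3 was higher by 0.92 ± 0.31 at E16 and Gpsm2 by 1.26 ± 0.16 at P1. Emx2, a transcription factor that reverses bundle direction in some HCs of the inner ear, differed by -0.97 ± 0.33 at E16, and Gnai2 by -1.34 ± 0.18 at P1. Of 8 tested ciliary and basal body genes (11 listed) none was lower and 2 and 4 were higher, with medians of 0.22 and 0.66. Of all genes 25.2% and 50.6% were called in either direction, with 1228 and 2322 of 9243 higher in HCs. Among them were Ift20 at 1.07 ± 0.18 and 1.69 ± 0.14 and Ift88 at 0.74 ± 0.22 and 1.18 ± 0.17. At P1 Bbs4 had 1.16 ± 0.18 and Kif3a 0.97 ± 0.25.

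From P1 to P7 the same lists had calls in HCs for 1 of 6 other core genes, 2 of 9 of the Wnt list, 2 of 14 effectors, 2 of 13 bundle genes, 2 of 8 ciliary genes and 0 of 3 of the Fat and Dachsous list, beside 24.8% of all genes. Their medians lay between -0.34 and -0.05 (log2), against -1.09 for the 7 members and -0.04 for all genes. Of the other core genes 1 fell (Fzd2, -0.75 ± 0.22, adjusted p = 0.0092). Of the Wnt list, Fzd4 rose by 0.89 ± 0.28 and Fzd9 changed by -1.13 ± 0.29. Of the effectors, the ubiquitin ligase Smurf1 rose by 0.77 ± 0.29 and the formin Daam1 changed by -1.02 ± 0.27. In the bundle list 1 gene rose and 1 fell. Ccdc88c, which binds Gnai and Dishevelled proteins, fell by 0.94 on the log2 scale (adjusted p = 0.013). Ift88 and Ift20 changed by -1.17 ± 0.24 and -0.92 ± 0.19, and no gene of the Fat and Dachsous list passed.

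The genes with a pattern most like each tested member were found by the Pearson correlation of log2(CPM + 10) over 33 values (11 libraries by 3 classes), which share library and depth. Vangl2 was nearest to Mex3a (r = 0.91), Srsf3 (0.89) and Hnrnpab (0.87), and Celsr1 to Btf3 (0.88), Rbmx (0.85) and Pcbp4 (0.85). For Vangl1 the nearest were Rtn1 (0.78), Nrcam (0.77), which is itself an SC gate gene, and Ccnjl (0.76). Fzd3 was nearest to Prag1 (0.85), Uri1 (0.81) and Pfdn2 (0.80), and Fzd6 to Tekt1 (0.79), Mfhas1 (0.79) and Trak2 (0.77). Dvl2 had Fam60a (0.90), Zfp422 (0.88) and Gtf2e1 (0.87), and Ptk7 had Pard6g (0.84), Tcf3 (0.83) and Igf2bp2 (0.83).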

How the data were processed

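Reads were aligned to mm10 and UMIs counted by the authors with Cell Ranger 2.1.1, and cells were filtered and normalized in Seurat 2.0, per the submitters' processing notes. The deposited values are on a natural log scale: ln(1 + 10000 x), where x is the gene's fraction of all UMIs in a cell. Whole UMI counts were recovered from them, and CPM were averaged, library by library, over the cells in a class. The members and the gene lists were chosen with earlier results of these data known. Classes were set by fixed marker gates in place of clustering, no doublet caller was run, and the alternatives drop cells that meet both gates, the top 5% of UMIs or cells over 3000 genes. A class needed 10 cells in a library.

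Classes and ages were compared on log2(CPM + 10) with limma 3.58.1 in R 4.3.3 (1 fit of 12 groups, group weights, library as a random block, mean trend), for 9243 genes with a mean over groups of at least 10 CPM (9011 in the IHC and OHC fit), with Benjamini-Hochberg adjustment over all of them and a threshold of 0.05. Adding 10 CPM understates the changes of low genes. E14 and P7 have 2 libraries each, and the spread of a gene is shared over all ages. Group weights, estimated from the libraries of each group, scale that spread and ran from 0.42 (HCs at E14) to 6.31 (other cells at E14). Named genes were all 10 members, up to 4 called genes of each pathway list with the largest change between HCs and SCs at E16 and P1, and the 3 nearest genes by pattern; genes named from the lists for P1 to P7, and the cell types singled out, were chosen after their values were seen. In the hair bundle list 1 gene that entered the counts is not reported here. The lists were tested gene by gene within the whole table. A floor of 3 UMIs gives the limits for zeros, which cover counting error only. Gene positions are from GENCODE M21 on GRCm38, the assembly named mm10 in the notes, and upstream windows from RefSeq. The count of reads by strand is not given in the sources used here, so overlapping genes are uncertain. The fits were tested on simulated data, where false calls exceeded the share the threshold allows between HCs and SCs at E14 and P7, between SCs and other cells at E16 and in HCs from E16 to P1, so calls there may be too many. The share was not exceeded between HCs and SCs at P1 or between IHCs and OHCs at P1. The remaining comparisons, among them all changes from P1 to P7, were not simulated. Alternatives covered the pseudocount, the floor, the gates, thinning to 1500 UMIs for gating, the scaling, the weights, the blocks and each library left out.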

Additional observations from a re-analysis of the deposited data

Results flagged for a closer look

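In groups of 4 P1 libraries, 3 of 30 groups of a member and a class held a library far from the rest (gap over range above 0.829), and chance flags about 1 group in 20. Fzd6 was at 61.6 CPM in the HCs of P1 replicate 4, where the remaining HC libraries held 48.6 to 50.7 CPM. Fzd6 was also at 24.9 CPM in the other cells of P1 replicate 4, with 9.02 to 9.93 CPM elsewhere at P1. Dvl1 was at 11.01 CPM in the lateral SCs of P1 replicate 3, on 9 UMIs, with 4.01 to 4.78 CPM in the others.

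The change from P1 to P7 differed between HCs and other duct cells for 4 of 7 members, by limma's test of the difference itself (HC change minus other-cell change, log2). Of all genes 32.2% were called there, 18.3% in the lower direction, and the comparison was added after the HC falls had been seen. The calls of Vangl1, Fzd3 and Vangl2 were lost without the library block and with single libraries left out. The differences were -1.54 for Ptk7, -0.92 for Vangl1, -0.87 for Fzd3 and -0.71 for Vangl2.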

How the results depend on the processing

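SC stands below for the gated lateral cells, at E14 the anchor-positive cells. Counts of genes called across the whole table stayed within 1.5 times the reported count in 259 of 307 counts recomputed under alternative settings, the left-out libraries below not included. Without a library block the counts were 345 (HC against anchor-positive cells at E14), 1460 (HC against SC at E16), 866, 710, 1374 and 1514 (SC against other at E14, E16, P1 and P7), 234 and 784 (change of HC minus SC, E16 to P1 and P1 to P7), 1846 (change of HC minus other) and 224 and 408 (IHC against OHC at P1 and P7). Without group weights they were 1443 (HC against SC, E14), 446 (SC against other, E14), 1927 (HC, E14 to E16), 846 and 1665 (SC, E16 to P1 and P1 to P7), 1344 (HC minus SC, E16 to P1) and 1286 (other, P1 to P7). With the mean of the ln values they were 2700 (SC against other, E14), 1767 and 2471 (HC, E14 to E16 and E16 to P1), 3231 and 1497 (SC, the same ages) and 1176 (HC minus SC, E16 to P1). Without cells over 3000 genes they were 531, 700, 218 and 206 (HC against SC, SC against other, HC and SC from E14 to E16) and 239 and 811 (IHC against OHC). A pseudocount of 1 CPM gave 445, 329, 102 and 414 (HC and SC from E14 to E16, SC and HC minus SC from E16 to P1). Other gates gave 375 and 265 (stricter, HC and SC, E14 to E16), 818 (looser, SC, E14 to E16) and 554, 288 and 100 (thinned, SC against other at E14, HC and SC from E14 to E16). Dropping cells of both gates gave 367 and dropping the top 5% of UMIs 446 (HC, E14 to E16). With no floor on low values the counts were 4189 (other, P1 to P7) and 700 (IHC against OHC, P7), and with each age fitted alone 3547 (SC against other, P1) and 975 (IHC against OHC, P1).

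Leaving out 1 library at a time moved the counts between 649 and 1939, 1531 and 2445, 3553 and 4857, and 4110 and 4621 (HC against SC, E14 to P7), 292 and 1564, 545 and 1204, 1348 and 2352, and 2153 and 2456 (SC against other), 418 and 1918, 795 and 1880, and 1568 and 2409 (HC by age), 122 and 616, 43 and 318, and 749 and 1710 (SC by age), 364 and 863, and 1171 and 2221 (HC minus SC), 1011 and 3188 (other, P1 to P7), 1907 and 3119 (HC minus other), and 346 and 613, and 648 and 1406 (IHC against OHC, P1 and P7). Where that leaves 1 library at E14 or P7, it is assumed to vary like the other groups.

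Median-ratio scaling changed the share of calls that were higher from 61.5% to 46.2% (SC against other, P1), from 54.2% to 69.9% (HC, E14 to E16), from 42.3% to 71.2% (SC, E14 to E16, with the median of all genes moved by 0.15) and from 38.9% to 51.8% (SC, P1 to P7, moved by 0.11). The mean of ln values moved that share by over 10 points in 9 comparisons, among them SC against other at E14 (51.8% to 91.1%).

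The fits without the replicate number as a block are those reported. In 7 pairs of same-numbered libraries of E14, E16 and P1 the correlation of deviations ran from -0.22 to 0.07, and 1 of 7 was highest with its own number. E14 has 2 libraries, whose deviations mirror each other, so the pairs are not independent. The labels do not say what the number stands for, and these correlations cannot decide whether same-numbered libraries share a preparation. With the replicate block, 452 genes were called between HC and anchor-positive cells and 949 between those and other cells at E14, and among the members the E16 call of Fzd6 was lost, while Vangl1 and Fzd6 (HC against SC) and Vangl2 and Celsr1 (SC against other) were called at P1. P7 shares only number 4 with P1, so that the pairing could not be used there.

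Of 138 comparisons of a member, 26 passed, beside 2.33% to 50.6% of all genes, depending on the comparison. The changes from P1 to P7 in other cells and in HCs minus other cells, added after the HC falls had been seen, gave 2 and 4 of the 26. No passed value changed direction in any alternative, 13 of the 26 passed in every alternative setting and 7 of these also with every library left out. Depth limits Prickle1, Prickle2, Dvl1 and the SCs of P7, where single UMIs set a level.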

Other observations

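Member levels in P1 replicate 4 were the highest of the 4 P1 libraries in other cells for Vangl1, Vangl2, Celsr1, Fzd3, Fzd6, Prickle1, Dvl2 and Ptk7. In its HCs the same held for Vangl1 (36.1 CPM), Vangl2 (116), Fzd3 (77.9), Fzd6 (61.6), Prickle1 (4.62), Prickle2 (4.56), Dvl2 (17.4) and Ptk7 (66.5). In its lateral SCs it held for Vangl2 (96.4 CPM), Celsr1 (59.3), Fzd3 (83.0), Fzd6 (67.1), Prickle1 (20.9), Prickle2 (5.30), Dvl2 (25.0) and Ptk7 (93.2). That library has the most cells of the 11, 5598, and the lowest median depth of the P1 libraries, 3831.5 UMIs per cell.

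In the HCs of 1 E16 library the blood marker list summed to 1357 CPM, against 66.9 CPM in the lowest E16 HC library. The part of blood RNA in the member values was not tested.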
